A study of Mus musculus with 8 samples.

Results

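The clustered protocadherins of the mouse were followed through ATAC-seq peak lists of cerebellar granule neuron progenitors (GNPs). The members were chosen by name and position only: 58 of 55450 genes of the GENCODE mm10 annotation carry a Pcdha, Pcdhb or Pcdhg symbol on chromosome 18, and every peak from the first to the last of them, with 100 kb added on each side, was taken with them. This stretch, chr18:36830184-37941873, held 72 of 152984 wild-type (WT) peaks, 41 of 106974 heterozygous (het) peaks and 72 of 174407 homozygous mutant peaks. ATAC-seq cuts open chromatin with a transposase, so a peak marks a place where the DNA was more accessible than its surroundings, and not the transcription of a gene.

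The study asked what the loss of Chd7, an ATP-dependent chromatin remodeller, does to GNPs, the dividing precursors of cerebellar granule cells. GNPs were purified over a percoll gradient at postnatal day 7 from mice labelled as C56Bl6/J, with 3 WT, 2 het and 3 mutant libraries; the sex of the pups was not distinguished, and the WT and mutant replicates are described as technical. In the study's GNP comparisons WT animals were Chd7 f/f, het animals Atoh1-Cre::Chd7 f/+ and homozygous mutants Atoh1-Cre::Chd7 f/f, so the floxed allele is shared by all groups and Cre is carried by het and mutant animals alone. Atoh1-Cre acts in the Atoh1-expressing lineage of the rhombic lip, which gives rise to granule cells, and does not target Purkinje cells. The study reports Chd7 protein left in the posterior lobe of mutants, which it ascribes to probably less efficient recombination by this line. The share of recombined cells in these libraries is not known here.

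Clustered protocadherins are cadherin-like adhesion proteins of the cell surface. In the alpha and gamma clusters each variable exon has its own promoter and is spliced to constant exons shared by the cluster, whereas each beta gene is a single exon. Neurons switch on a small, largely random set of the alternate promoters with the help of CTCF, cohesin and DNA demethylation, whereas the C-type members, at the downstream end of alpha and gamma, are controlled in a more uniform way. The resulting surface code is read by homophilic binding, and it serves self-avoidance of neurites, as in Purkinje cells and in starburst amacrine cells of the retina.

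Each genotype has 1 peak list, called by MACS2 on its pooled libraries, so the spread between replicates is unknown here and genotypes are compared without a test. The lists rest on 50394313 WT, 30923002 het and 51030229 mutant tags. The height of a peak is its pileup, the number of extended tags over its summit, and its strength is the −log10 of its q-value. Intervals are at the 95% level and cover counting error only. WT and mutant lists were made with like settings except for the tag size, which was longer in WT than in mutant (76 bases). Their pileups were compared after division by the tags of each list. Tag size thus goes with genotype in every WT to mutant comparison, and its part in the differences was not tested. The het list used a longer tag extension, which raises its pileups, so that het heights are given but not compared, and its differences from the other lists cannot be told apart from its depth and settings. All 8 GNP markers examined, among them Atoh1 and Barhl1, had a peak at the gene start in every list. In the WT list so did 4 of 5 Purkinje cell, 4 of 4 interneuron progenitor and 3 of 5 Bergmann glia and astrocyte markers. For the oligodendrocyte lineage 2 of 4 had one in WT, for endothelium 1 of 3, and none of 3 microglia markers did in any list. Of all protein-coding starts 65.3% had a WT peak, so these peaks do not tell the cell types apart. The part of other cells in the results was not tested. The peak at the Chd7 promoter, which is not a check of the deletion, reached 40 WT, 63 het and 52 mutant tags.

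The 58 genes lie on the plus strand in 3 clusters. The alpha cluster has 14 genes over 257 kb (chr18:36930184-37187661), the beta cluster 22 genes over 260 kb (chr18:37264938-37524479) and the gamma cluster 22 genes over 180 kb (chr18:37661793-37841873). Of these, 5 are C-type (Pcdhac1, Pcdhac2, Pcdhgc3, Pcdhgc4 and Pcdhgc5), and the other 53 are alternate members. A start-site peak was taken as the tallest peak that overlaps 1 kb on either side of the gene start.

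Start sites of the family were open in part. In the WT list 32 of 58 starts had a peak (55.2%, Wilson interval 42.5 to 67.3), against 65.3% of all protein-coding starts. In the mutant list 33 of 58 had one (56.9%, 44.1 to 68.8, against 66.1%). In the het list 17 of 58 had one (29.3%, 19.2 to 42.0, against 63.4%). WT and mutant thus differed by 1 start in all, and the het share was the lowest. In these bulk samples, fewer cells with an open promoter and a promoter less open in every cell cannot be told apart.

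The 4 C-type starts with a peak stood far above the rest in every list. Pcdhac1 (start at 37090013) had a pileup of 58 tags in WT, 82 in het and 60 in mutant. Pcdhac2 (37143503) had 59, 93 and 61 tags in the same order. Both belong to the alpha cluster and are the only alpha starts past 20 tags in any list. Pcdhgc3 (37806364), the tallest start of the family, had 73 tags in WT, 112 in het and 75 in mutant. Pcdhgc4 (37815079), which is known for its part in neuronal survival, had 65, 90 and 63 tags. Pcdhgc5, the last gene of the gamma cluster, had no peak at its start in any list. The WT strength of the 4 peaks ran from 30.1 to 43.4, above 89.8% to 95.6% of all WT peaks or equal to them, beside a median of 91.1% over protein-coding starts with a WT peak.

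The mutant to WT ratio of the C-type peaks stayed near 1. It was 1.02 at Pcdhac1 (0.700 to 1.49), 1.02 at Pcdhac2 (0.702 to 1.49), 1.01 at Pcdhgc3 (0.725 to 1.42) and 0.957 at Pcdhgc4 (0.666 to 1.37). Summed over the C-type starts, 255 WT tags stood against 259 mutant tags, a ratio of 1.0 (0.840 to 1.2).

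Alternate promoters gave low and narrow peaks. Of 53 alternate members, 28 had a WT start-site peak, 29 a mutant and 13 a het one. Their WT pileups ran from 8 to 22 tags with a median of 11.5, close to the lowest pileup of 7 in the whole WT list, and their mutant pileups from 7 to 18 with a median of 12.0. The WT range did not overlap that of the C-type starts, 58 to 73 tags. Widths differed likewise: alternate WT peaks spanned 90 to 562 bases (median 141) and C-type WT peaks 685 to 1390 (median 1295). In 23 of the 28 alternate WT peaks the summit lay within 300 bases of the annotated start. For comparison, the start-site peak of a protein-coding gene with a WT peak had a median of 52.0 tags.

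**Figure D1:**
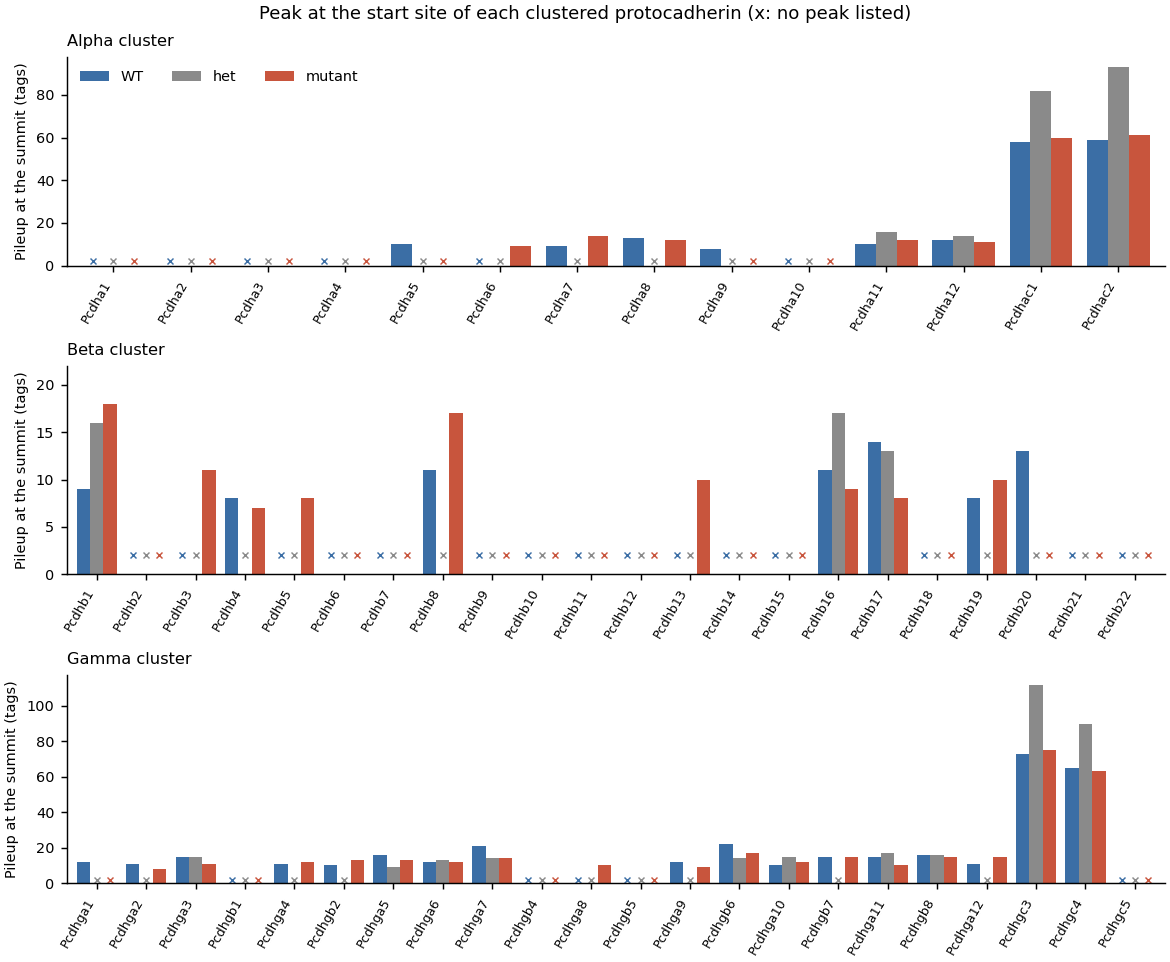
Pileup at the summit (tags, y axis) of the start-site peak of each of the 58 clustered protocadherins in genomic order (x axis), by cluster, with the WT, het and mutant lists as bars and a cross where no peak is listed. The 4 tall groups are Pcdhac1, Pcdhac2, Pcdhgc3 and Pcdhgc4; the alternate starts reach at most 22 tags in WT. Each bar is 1 pooled list and has no replicate error, and het bars are not on the scale of the others.

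The counts of open starts varied by cluster. Of 14 alpha starts, 8 had a WT peak, 7 a mutant peak and 4 a het peak. Of 22 beta starts, the counts were 7, 9 and 3, and of 22 gamma starts they were 17, 17 and 10. Open starts were thus most frequent in gamma and least frequent in beta in each list. Within gamma, 11 of 12 members of the a series had a peak in WT and in mutant, and 4 of 7 members of the b series did so in both. No list gave a peak at 21 starts (5 in alpha, 12 in beta and 4 in gamma).

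In the alpha cluster the first gene, Pcdha1, had no start-site peak in any list, nor did the next 3. Taking the tallest peak at each start, the lowest WT value was at Pcdha9, with 8 tags, and no het or mutant peak was listed there. Pcdha7 had 9 tags in WT and 14 in mutant, without a het peak. Pcdha8 had 13 and 12 tags, again without a het peak. Of the alternate alpha genes, Pcdha11 and Pcdha12 were listed in all genotypes: Pcdha11 had 10 WT, 16 het and 12 mutant tags, and Pcdha12 had 12, 14 and 11. These are the alternate alpha members nearest to Pcdhac1.

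In the beta cluster, no peak was taller than 14 tags in WT, 17 in het or 18 in mutant. Pcdhb1, the first gene, had 9 WT, 16 het and 18 mutant tags, and Pcdhb22, the last, had no peak in any list. Pcdhb17 had the tallest WT beta start, with 14 tags, beside 13 in het and 8 in mutant. Pcdhb1, Pcdhb16 and Pcdhb17 were the beta starts present in every list. By the tallest peak at each start, the lowest WT values were those of Pcdhb4, with 8 WT and 7 mutant tags, and Pcdhb19, with 8 WT and 10 mutant tags. Pcdhb8 had 11 tags in WT and 17 in mutant. None of these last 3 had a het peak.

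Among the alternate gamma genes Pcdhgb6 had the tallest WT peak of the family outside the C-type, with 22 tags, beside 14 in het and 17 in mutant. Pcdhga7 had 21 tags in WT, 14 in het and 14 in mutant. Pcdhga11 had 15, 17 and 10 tags. Pcdhgb6 was named for its WT height, and Pcdhga7 and Pcdhga11 for their low mutant to WT ratios. That the WT value was above the mutant value at all 3 starts was thus fixed or favoured by this choice. Taking the tallest peak at each start, the lowest WT starts of the cluster, Pcdhgb2 and Pcdhga10, had 10 tags each, beside 13 and 12 in mutant. Pcdhgb7 had 15 tags in WT and in mutant. Pcdhga2 had 11 tags in WT and 8 in mutant. Pcdhga4 had 11 and 12, and Pcdhga9 had 12 and 9. None of these last 4 genes had a het peak.

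Which starts were listed was largely shared. Peaks in all 3 lists were found at 17 starts and in WT and mutant alone at 11. A WT peak alone was found at 4, namely Pcdha5 (10 tags), Pcdha9 (8), Pcdhb20 (13) and Pcdhga1 (12). A mutant peak alone was found at 5, namely Pcdha6 (9 tags), Pcdhb3 (11), Pcdhb5 (8), Pcdhb13 (10) and Pcdhga8 (10). No start had a het peak without a WT or mutant peak. All 9 discordant starts belong to alternate members with pileups of 13 tags or less.

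The discordant starts were set beside all protein-coding starts and beside those with low peaks. The share of WT start peaks without a mutant peak was 4 of 28 alternate members (14.3%, 5.70 to 31.5), whereas it was 1.99% over all protein-coding starts but 13.0% over those whose WT pileup was 22 or less, the alternate range. The share of mutant start peaks without a WT peak was 5 of 29 (17.2%, 7.60 to 34.5), against 3.19% over all protein-coding starts and 29.5% over those with a mutant pileup of 18 or less. Both backgrounds with the pileup limit lay within the counting intervals of the alternate members, although only the upper limit was the same and the heights below it were not matched. A het peak was found at 13 of the 28 alternate WT starts (46.4%, 29.5 to 64.2) and at 71.9% of protein-coding starts with a WT pileup of 22 or less, above the interval of the members. These height limits were set after the values were seen.

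The heights of paired starts went both ways over the family. For the 28 starts with a peak in both lists the median mutant to WT ratio was −0.04 on the log2 scale, with 12 higher and 16 lower in mutant. At Pcdha12, Pcdhga5 and Pcdhga9, all counted as lower, the WT and mutant peaks do not overlap. The gaps between them are 39, 1 and 206 bases. With overlapping partners alone the median over 25 starts was −0.02. The median over 14043 protein-coding starts was 0.05, and over those with a WT pileup of 22 or less it was 0.14. Of the 24 paired alternate starts 15 were lower and 9 higher, with a median of −0.12. Of all 14043 paired protein-coding starts 5150 were lower, and among those with a WT pileup of 22 or less 34.6% were. Past 1.5-fold, 3 of the 28 member starts were lower in mutant, beside 0.527% of all protein-coding starts and 2.17% of those with a WT pileup of 22 or less. Another 3 of the 28 were higher, beside 1.40% and 8.91%. The low starts were picked by a low WT pileup, the denominator of the ratio, which favours higher ratios among them. Members were chosen by name, and heights below the limit were not matched to theirs. The low starts are thus not a like background for the member ratios. No counting interval of a member start excluded a ratio of 1.

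The 3 highest ratios were those of Pcdhb1 (1.98, 0.843 to 4.99), Pcdha7 (1.54, 0.619 to 4.02) and Pcdhb8 (1.53, 0.674 to 3.60). The 3 lowest were those of Pcdhb17 (0.564, 0.205 to 1.44), Pcdhga7 (0.658, 0.310 to 1.36) and Pcdhga11 (0.658, 0.264 to 1.57). Each interval spans more than a doubling, since few tags stand behind each value.

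By cluster, alternate gamma starts leaned lower in mutant. Of 14 paired gamma alternates 10 were lower and 4 higher, with a median of −0.21 on the log2 scale. The lower ones include Pcdhga5 and Pcdhga9, whose WT and mutant peaks do not overlap. Of all paired protein-coding starts 5150 of 14043 were lower. Among those with a WT pileup of 22 or less, a set picked on the WT value itself, 34.6% were. Summed over the 14, 197 WT tags stood against 176 mutant tags, a ratio of 0.882 (0.716 to 1.09), whose interval includes 1. The 6 paired beta starts gave 61 WT and 69 mutant tags (ratio 1.12, 0.780 to 1.6), and the 4 paired alpha alternates 44 and 49 (1.1, 0.717 to 1.69). Over all 24 paired alternates the ratio was 0.961 (0.816 to 1.13).

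The 6 strongest WT peaks away from the member starts lay outside the clusters. The 100 kb before the alpha cluster held no peak in any list, and the longest stretch without a peak was 140 kb in WT, 212 kb in het and 147 kb in mutant. Peak density over the whole region was 6.48 per 100 kb in WT, 3.69 in het and 6.48 in mutant, against 5.61, 3.92 and 6.40 over the genome. The gamma cluster was the densest segment, with 16.1 WT and 17.2 mutant peaks per 100 kb, and the beta cluster held 3.85 and 4.62.

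The strongest WT peak of the region, at chr18:37643946-37644598 between beta and gamma, covers the start of Taf7, a single-exon gene for a TFIID subunit, and had 76 tags in WT, 110 in het and 84 in mutant (mutant to WT ratio 1.09, 0.791 to 1.51). The next, at chr18:37934916-37935753, covers the start of Diaph1, an actin-nucleating formin, with 81, 129 and 81 tags (0.988, 0.717 to 1.36). An intergenic peak at chr18:37217708-37218485 had 74, 105 and 78 tags (1.04, 0.748 to 1.45). It lies between the alpha cluster and Pcdhb1, 46.5 kb before the latter, in a stretch where enhancers of the alpha cluster are known to lie, and was as tall as the Pcdhgc3 start. Beside it, a peak at chr18:37217138-37217542, named after its values were seen, had 51 WT and 48 mutant tags, and the het peak spans both.

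The other 3 of the 6 strongest WT peaks away from member starts fell in introns of Diaph1, downstream of gamma. The peak at chr18:37879711-37880473, 37.8 kb past the gamma end, had 73 tags in WT, 102 in het and 68 in mutant (0.920, 0.651 to 1.30). The peak at chr18:37877192-37877584 had 68, 102 and 65 tags (0.944, 0.661 to 1.35). The peak at chr18:37852088-37852477 had 54, 76 and 54 tags (0.988, 0.665 to 1.47). All 6 were listed in every genotype, and their ratios lay between 0.920 and 1.09.

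Constant exons themselves carried few peaks. None of the 3 alpha constant exons overlapped a peak in any list. In gamma the first constant exon (37825021 to 37825079) overlapped a peak in WT, with 26 tags, and in mutant, with 29, and the last constant exon overlapped a peak in every list. The intron before the last alpha constant exon held a peak at chr18:37178259-37179000, which covers the start of the lncRNA Gm10544 and had 43 tags in WT, 72 in het and 55 in mutant (1.26, 0.832 to 1.93).

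**Figure D2:**
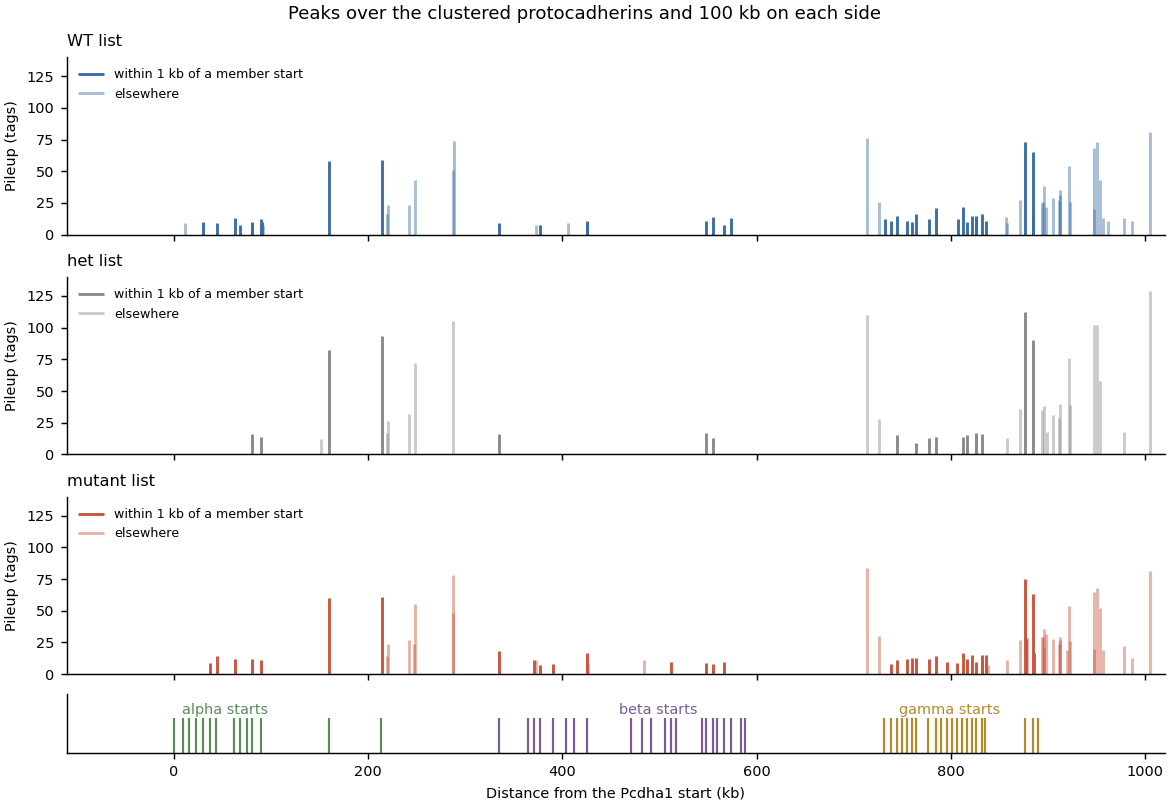
Pileup (tags, y axis) of every peak of the region against its distance from the Pcdha1 start (kb, x axis) in the WT, het and mutant lists, with member starts as ticks in the lowest panel. Dark lines are peaks within 1 kb of a member start and pale lines are other peaks; the flank before alpha is empty and no beta peak passes 18 tags.

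Overlap between the WT and mutant lists, counted from 1 shared base, was near that of the genome. In the region 18 of 72 WT peaks had no mutant peak (25.0%, 16.4 to 36.1), against 22.8% of all WT peaks. Of mutant peaks 16 of 72 had no WT peak (22.2%, 14.2 to 33.1), against 30.7%. Weak peaks made up most of both sets. Below a strength of 5, 11 of 29 WT peaks had no mutant peak (37.9%, against 50.7%) and 13 of 26 mutant peaks had no WT peak (50%, against 63.7%). At a strength of 5 or more, 7 of 43 WT peaks had no mutant peak (16.3%, 8.12 to 30, against 5.78%), and 3 of 46 mutant peaks had no WT peak (6.52%, against 11.2%).

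Some of the stronger WT peaks without a partner had a mutant peak close by. When a partner within 300 bases was accepted, a setting added after the data were seen, 4 of 43 remained without (9.30%), against 4.96% of all WT peaks of that strength. The strongest, at chr18:37694314-37694526 over the Pcdhga5 start, had 16 tags, and a mutant peak at chr18:37694528-37694665, with 13 tags, begins after a gap of 1 base. The next WT peaks without a partner were a peak in the intron downstream of the gamma alternates at chr18:37786564-37786719, with 14 tags, and the Pcdhb20 start peak at chr18:37504238-37504347, with 13. The strongest mutant peaks without a WT partner were at chr18:37176858-37177010, in an exon of Gm10544 with 24 tags, and at chr18:37808250-37808471, downstream of the Pcdhgc3 start with 29 tags. None of these sites passed 29 tags.

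At member starts 13 of 38 WT peaks had no mutant peak (34.2%), and elsewhere in the region 5 of 34 (14.7%), against 22.8% of all WT peaks. For mutant peaks the values were 9 of 36 at member starts (25.0%) and 7 of 36 elsewhere (19.4%), against 30.7% of all mutant peaks. These are counts of peaks, and a start can hold several. Counted by start, 4 of 28 alternate members with a WT peak had no mutant peak. The peaks at member starts were mostly those of the alternate promoters, which are the low ones.

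**Figure D3:**
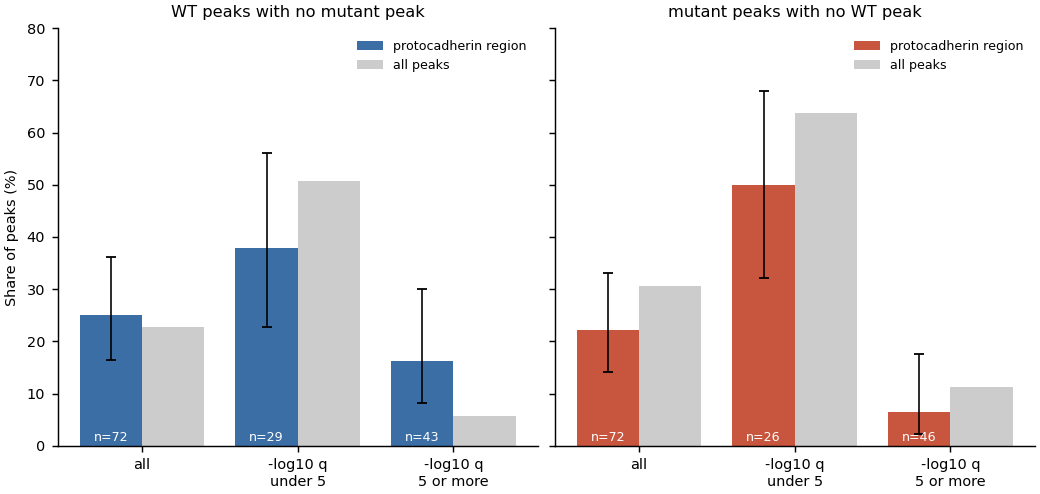
Share of WT peaks with no overlapping mutant peak (left) and of mutant peaks with no overlapping WT peak (right), in percent, for all peaks and by −log10 q. Coloured bars are the protocadherin region with Wilson 95% intervals and the number of peaks, and grey bars are all peaks of the list; at 5 or more the left panel stands at 16.3% in the region and 5.78% over all peaks.

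Most het peaks of the region overlapped a peak of the other lists, as did most het peaks of the whole list. Of 41 het peaks of the region, 39 overlapped a WT peak (95.1%, against 86.7% of all het peaks) and 38 a mutant peak (92.7%, against 89.3%). All 32 het peaks with a strength of 5 or more had both, where 96.4% of all such het peaks had a WT peak and 97.5% a mutant peak. In turn 43 of 72 WT peaks (59.7%, against 63.1%) and 42 of 72 mutant peaks (58.3%, against 58.7%) had a het peak. Of the 46 mutant peaks with a strength of 5 or more, 71.7% had one, against 79.3%.

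Peaks present in WT and mutant had like heights. For the 54 shared peaks of the region the median ratio was 0.00 on the log2 scale (interval of the median −0.06 to 0.14), with 27 lower and 27 higher in mutant, and over all shared peaks it was 0.08. Past 1.5-fold, 3 were lower in mutant (5.56%, against 3.61% of all shared peaks) and 4 were higher (7.41%, against 8.37%). No interval in the region lay wholly below or above 1, where 0.514% and 1.43% of all shared peaks did. Where both peaks had a strength of 5 or more, 33 pairs were left, with 1 past 1.5-fold in each direction, against 2.46% lower and 5.15% higher over all peaks.

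Among these stronger pairs the highest ratio was that of a Diaph1 intron peak at chr18:37908191-37908292, with 13 WT and 22 mutant tags (1.67, 0.805 to 3.61). The intron after the first gamma constant exon gave the next, at chr18:37827965-37828087, with 22 and 32 tags (1.44, 0.809 to 2.59), followed by the Gm10544 start peak given above. The lowest ratio was that of the Pcdhga7 start. A peak at chr18:37841956-37842423, 83 bases past the gamma end, had 35 WT and 27 mutant tags (0.762, 0.443 to 1.30), and the Pcdhgb6 start had the next ratio (0.763, 0.380 to 1.5). None of these intervals excludes 1.

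**Figure D4:**
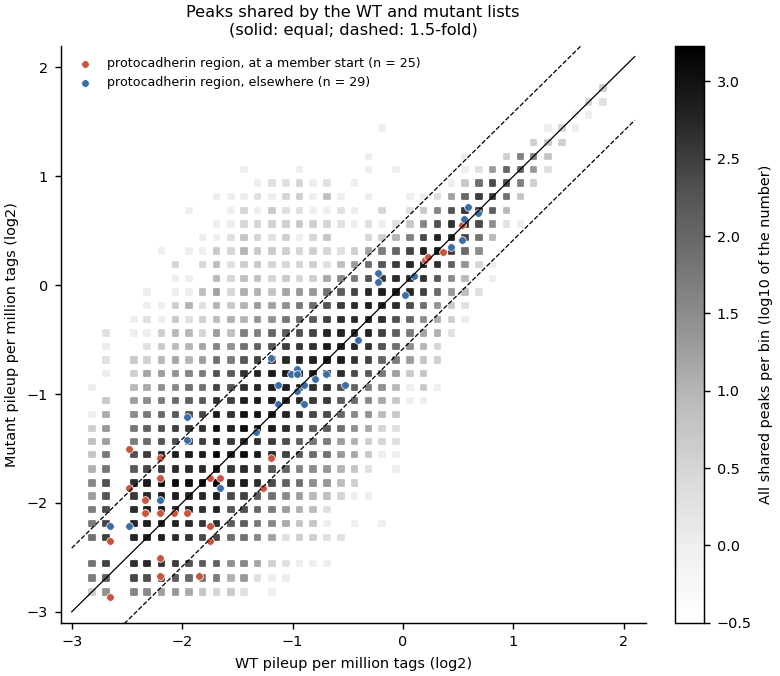
Mutant against WT pileup, each divided by the tags of its list (both axes log2), of peaks shared by the lists, with red points for the 25 region peaks at a member start, blue points for the 29 elsewhere in the region, and grey squares for all shared peaks by number. Member starts lie mainly among the low peaks, where the spread of all peaks is wide, and 3 and 4 points of the region fall past the dashed 1.5-fold lines below and above.

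Genes listed as family relatives, regulators or partners of the clustered protocadherins were open at the start in most cases. Over all protein-coding starts the share was 65.3% in WT, 63.4% in het and 66.1% in mutant. Of 12 non-clustered protocadherins, which lie outside the clusters and share no constant exons, 11 had a peak in each list and Pcdh12 had none. Their WT pileups ran from 28 to 96 (median 60), above the alternate range of 8 to 22. Of 15 factors of promoter choice and silencing, among them Ctcf, Rad21, Smchd1 and Dnmt3b, 13 had a peak in each list (WT median 66), and Dnmt1 and Stag1 had none at the start of the gene record. Of 10 intracellular partners, among them the kinases Ptk2, Ptk2b and Fyn, 9 had a peak in WT and het and 10 in mutant (WT median 77.0). The median mutant to WT ratio was 0.09, 0.02 and 0.02 on the log2 scale. No gene of these lists passed 1.5-fold, where only 0.527% of all paired protein-coding starts were lower past it and 1.40% higher.

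The start sequences of alternate members differed from those of other genes in base composition. In the window from 250 bases before to 50 after the start, the median GC content was 39.7% over alternate members and 54.7% over the C-type, against 55.0% over 21931 protein-coding starts. The ratio of observed to expected CpG was 0.52 over the 58 members and 0.52 over all. Sequence repeated within the region can keep tags from being placed: 3.45% of its 76-base words occur more than once. Within 1 kb of the start the median share of such words was 6.3% in the alpha alternates and 0.0% in beta, gamma alternates and the C-type. It was 4.1% over the 21 members with no peak in any list and 0.0% over the 37 with a peak. Words of 76 bases match the mutant tags. With longer words, of the WT and het tag size, these medians were 0.5% and 0.0%. Within the alpha alternates the 76-base shares overlapped. They ran from 4.1% to 10.5% at starts with no peak in any list and from 0.9% to 10.8% at the others. The part of repeated sequence in the missing peaks was not tested.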

How the data were processed

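ATAC-seq libraries of WT, het and mutant GNPs were grouped by the titles of the samples. The authors deposited 1 MACS2 list per genotype, called on pooled libraries. Its columns hold the pileup (signal in tags, not scaled for depth), the fold enrichment (a ratio to local background) and −log10 q-values, as deposited; −log10 p-values were not used. Per the file headers, WT and mutant tags were aligned with STAR and called without a shift, with tag sizes of 107 and 76 bases and fragment lengths of 90 and 88 bases. Het tags were aligned with bowtie and called with a shift of −100 and an extension of 200 bases, which is the treatment the study's methods describe. The labels' processing notes name Trim Galore 0.4.1, STAR 2.5.0b, Picard 1.139 and MACS2 2.1.0.20150731. The lists rest on 30923002 to 51030229 tags, which sets the lowest pileup at 7 to 8.

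Coordinates are 1-based on mm10 (GRCm38). Genes came from GENCODE M21. Of 2 records with the symbol Pcdha11, the upstream one was named Pcdha10 after RefSeq, and 3 read-through models that span clusters were left out when peaks were placed in introns or exons. Peaks were paired from 1 shared base. Shares have Wilson intervals and ratios exact conditional (Clopper-Pearson) intervals. Scripts in Python 3.11.15 with scipy 1.17.1 were tested on simulated data. Named were C-type members, the first and last member of each cluster, the tallest and lowest WT start, up to 10 partly listed starts, the 3 highest and lowest ratios, and the strongest peaks away from starts and without a partner. A gene of the list of promoter choice factors is not reported here. The members and lists were chosen with earlier results of these data known. Alternatives covered overlap, q-value threshold, scaling, fold enrichment, start window and flanks.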

Additional observations from a re-analysis of the deposited data

How the results depend on the processing

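No paired analysis was possible because each genotype has 1 list called on pooled libraries, and for the same reason no replicate could be left out. Alternate starts lie near the lowest pileups a list holds, and the part of depth in which of them were listed was not tested. Overlap shares moved most with the settings. Peaks of the region counted at −log10 q of 5 or more were 43 in WT and 46 in mutant, from 72 each. These are 59.7% and 63.9%, against 62.1% and 62.8% of all peaks of the lists. WT peaks that lacked a mutant partner (25.0%, against 22.8% of all WT peaks) were 36.1% with 50% reciprocal overlap (35.9% over all). They were 13.9% with a partner within 300 bases (19.3% over all). For WT peaks of −log10 q of 5 or more they were 16.3% (5.78% over all). With both of the last settings they were 9.30% (4.96% over all). Mutant peaks that lacked a WT partner (22.2%, against 30.7% of all mutant peaks) were 36.1% with reciprocal overlap (43.8% over all). They were 6.52% at −log10 q of 5 or more (11.2% over all). With a partner within 300 bases at that limit they were 4.35% (9.84% over all). The share of WT peaks with a het peak (59.7%, against 63.1% over all) was 44.4% with reciprocal overlap (50.1% over all). It was 81.4% at −log10 q of 5 or more (84.2% over all) and 72.1% with that limit in both lists (77.5% over all). With a partner within 300 bases at that limit it was 81.4% (85.5% over all). The share of mutant peaks with a het peak (58.3%, against 58.7% over all) was 41.7% with reciprocal overlap (45.5% over all). It was 71.7% at −log10 q of 5 or more (79.3% over all) and 71.7% with the distance added (80.9% over all). Starts with a peak fell to 31.0% in WT and 31.0% in mutant at −log10 q of 5 or more. The tallest peak lay below that limit at 6.09% of protein-coding starts with a WT peak. In mutant it did so at 5.41%. The median log2 ratio over shared peaks (0.00) was −0.07 when scaled to a median of all shared peaks of 0 and −0.02 for pairs with −log10 q of 5 or more. Past 1.5-fold, the 3 lower peaks became 1 with fold enrichment and 1 at −log10 q of 5 or more, and the 4 higher became 2 with scaling to the median and 1 at −log10 q of 5 or more. The cause was not tested beyond the settings themselves. The limits on −log10 q leave fewer peaks, whereas reciprocal overlap and the partner within 300 bases keep all 72 of each list. Of all values under alternatives, 37 stayed within the interval or factor set for them, 22 moved beyond it and 2 changed sign.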
